A study of Mus musculus with 12 samples.

Results

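The transcripts of 10 subunits of protein phosphatase 2A (PP2A) were examined in RNA-seq of the left ventricle, with 6 WT and 6 cmGch1 KO mice, all 16 weeks old. The rows were taken from the gene count table by symbol, 10 of 26921 genes, and all 10 were among the 11225 genes that passed the filter on low counts (cpm over 3 in at least 6 libraries). WT animals carried Gch1 flox/flox without Cre, and cmGch1 KO animals carried Gch1 flox/flox with 1 copy of an α-myosin heavy chain Cre transgene, which is active in cardiomyocytes, so that deletion of Gch1 and presence of Cre cannot be told apart in this comparison. The study asked how the heart responds when its muscle cells cannot make tetrahydrobiopterin, the cofactor whose synthesis starts with the enzyme encoded by Gch1. The set was chosen by the Ppp2r3a log2 fold change between genotypes in these same libraries, with the other subunits added around it, so the genotype values of the 10 subunits are given as a description with no test.

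PP2A is a serine/threonine phosphatase built from a scaffold (A) subunit, a catalytic (C) subunit and 1 of many regulatory (B) subunits. The A and C subunits form a common core, and the B subunit sets where the enzyme goes and which substrates it meets. In heart muscle PP2A acts against protein kinases on calcium channels, the ryanodine receptor and myofilament proteins. Ppp2r3a encodes the B″ subunits PR130 and PR72, which bind calcium through EF-hand motifs.

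Ppp2r3a lies on the minus strand of chromosome 9 (chr9:101105084-101251795, GRCm38, GENCODE M21). It has 2 annotated coding transcripts with separate starts and a common 3′ part. The long transcript (Ppp2r3a-202, 3450 coding bases, 1150 codons) starts at the 5′ end of the gene, and the short one (Ppp2r3a-201, 1590 coding bases, 530 codons) starts 52722 bases further along the gene. They share 1458 coding bases, while 1992 belong to the long transcript alone and 132 to the short one. The deposited table holds 1 count per gene, so the values below sum both forms. The 250 bases before each RefSeq start are shown because the forms have separate starts. The RefSeq start of the long transcript lies 37 bases upstream of the GENCODE one, and that of the short transcript is the same base in both. The sequences are from RefSeq (GRCm38.p6), 5′ to 3′ on the minus strand, with capitals marking every match to GGGCGG (the GC box), TATAAA (the TATA box), CCAAT (bound by NF-Y), AGATAA (bound by GATA factors), TCAAGGTCA (bound by ERR receptors) or a loose form of the MEF2 site, CTA and TAG with any 4 bases between, searched on both strands.

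Long transcript, chr9:101251833-101252082: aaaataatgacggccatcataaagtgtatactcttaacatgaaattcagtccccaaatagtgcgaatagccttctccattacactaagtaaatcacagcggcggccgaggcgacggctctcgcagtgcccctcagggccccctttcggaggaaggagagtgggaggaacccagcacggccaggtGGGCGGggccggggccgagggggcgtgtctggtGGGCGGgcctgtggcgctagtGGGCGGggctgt
Short transcript, chr9:101199074-101199323: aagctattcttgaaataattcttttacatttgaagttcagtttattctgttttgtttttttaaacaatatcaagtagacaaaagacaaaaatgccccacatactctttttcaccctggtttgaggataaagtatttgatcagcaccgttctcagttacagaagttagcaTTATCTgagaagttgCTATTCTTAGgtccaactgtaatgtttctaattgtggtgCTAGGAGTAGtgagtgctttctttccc

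The window before the long transcript held 60.4% G and C, 17 CG dinucleotides and 3 GC boxes, which did not overlap each other. The window before the short transcript, which touches no exon of the long one, held 34.0% G and C, 1 CG dinucleotide, 1 AGATAA match on the opposite strand and 2 matches to the loose MEF2 form. In these 2 matches the bases between CTA and TAG were TTCT and GGAG, so neither held only A and T there. Among all 32851 RefSeq windows of the same length, 32.7% held a GC box, 9.99% an AGATAA match and 3.20% a match to the loose MEF2 form, and the median G and C content was 52.4%. Neither start held the TATA box (12.4% of windows), the CCAAT motif (33.8%) or the ERR motif (0.387%). Windows were found for 7 of the 10 subunits. These matches describe the sequence and were not tied to any measurement.

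The libraries held 19921398 to 37917806 counts. Gch1 was lower in every cmGch1 KO library (3.94 to 6.35 cpm) than in any WT library (9.32 to 12.2 cpm), with a log2 fold change of -0.96 (SE 0.11) and an FDR of 6.88e-04 by edgeR's quasi-likelihood test. Each library came from 1 animal. In cmGch1 KO replicates 2 and 3, Xist stood at 87.1 and 99.6 cpm and 4 genes of the Y chromosome (Uty, Kdm5d, Ddx3y and Eif2s3y) at 0 counts, whereas in the other 10 libraries these 4 summed to 168 to 193 cpm. Mitochondrial genes held 14.9% and 16.1% of the counts in those 2 libraries and 18.3% to 22.9% in the others. Across all genes tested, 50 (0.445%) were lower and 76 (0.677%) higher in cmGch1 KO at an FDR under 0.05, 1.12% in either direction, and the median log2 fold change was -0.01. Without those 2 libraries 18 genes were lower and 16 higher.

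Ppp2r3a, the B″ regulatory subunit, was the only 1 of the 10 whose genotypes did not overlap. In WT hearts it ranged from 311 to 417 cpm with a median of 355, and in cmGch1 KO hearts from 185 to 231 cpm with a median of 225. WT hearts had a mean of 357 ± 41.6 cpm and cmGch1 KO hearts a mean of 218 ± 17.1 cpm (SD, n = 6 each). Every cmGch1 KO library lay below the lowest WT library, and the WT libraries were the more widely spread. The fitted log2 fold change was -0.71 (SE 0.08, 95% interval -0.89 to -0.53), and the mean level was 39.0% lower. Ppp2r3a was picked on this contrast, so its interval lying away from 0 is no separate result, and the fitted value may overstate the difference. By log2 fold change it ranked 40th from the lowest of the genes tested. By mean cpm it stood above 96.4% of the genes tested.

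**Figure D1:**
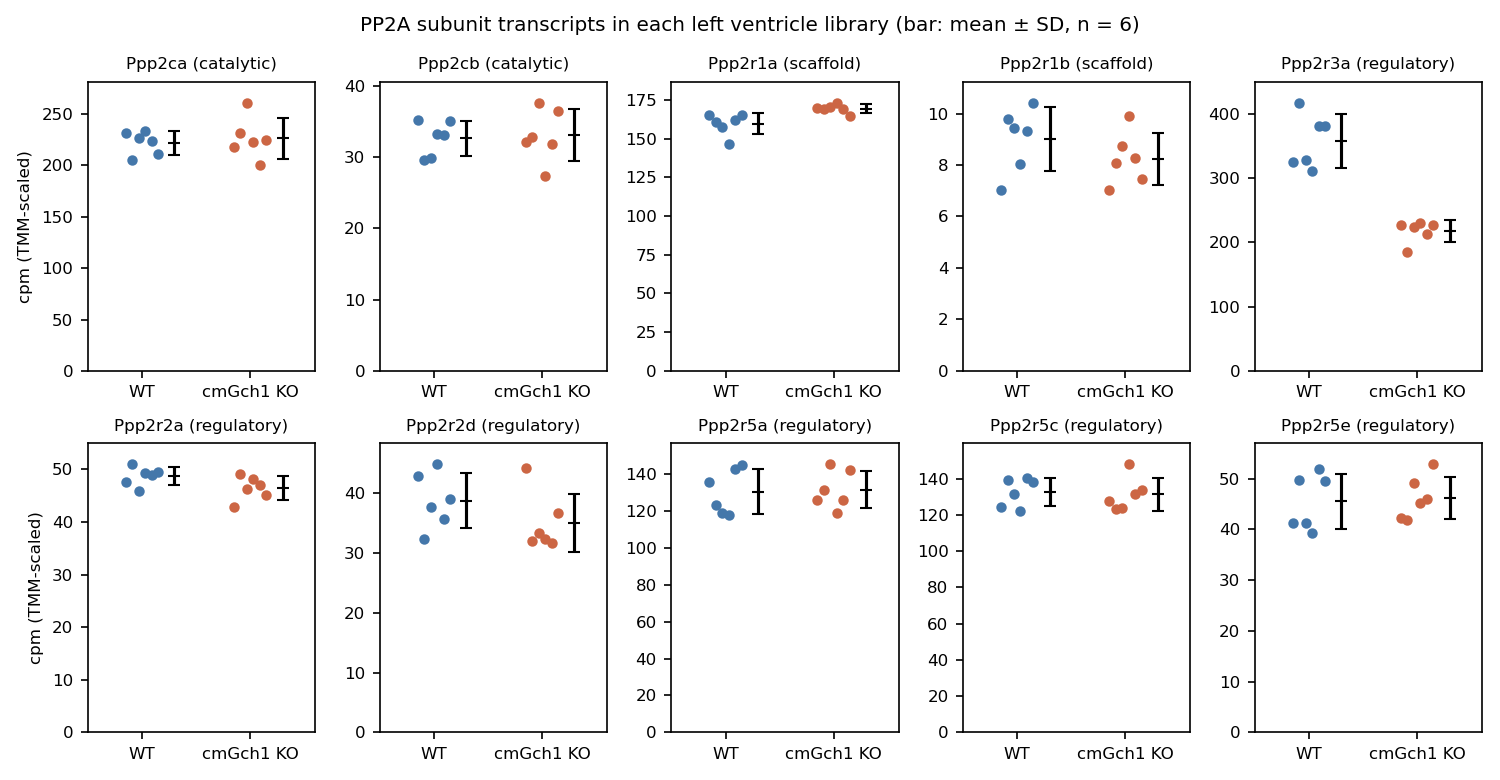
Level of each of the 10 PP2A subunit transcripts (y axis, cpm scaled by TMM, starting at 0) in the 6 WT and 6 cmGch1 KO libraries (points), with the mean and SD of each group beside them. Ppp2r3a sits between 311 and 417 cpm in WT and between 185 and 231 cpm in cmGch1 KO, and in the other 9 panels the groups overlap.

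The Ppp2r3a log2 fold change was -0.67 without cmGch1 KO replicates 2 and 3, and the same when Xist and Y-linked expression entered the fit as a term. The lowest cmGch1 KO value, 185 cpm, was in replicate 2, and replicate 3 held 224 cpm, close to the group's median. In bulk tissue, fewer cells of a type and less RNA per cell cannot be told apart. The summed level of 6 cardiomyocyte markers (Myh6, Tnnt2, Tnni3, Actc1, Myl2 and Myl3) was also lower in cmGch1 KO without overlap, at 50184 to 54294 cpm against 55675 to 59116 cpm in WT, a mean difference of -8.56%. Of these 6 markers 5 had negative log2 fold changes, 0 were called, and the median was -0.17. Set against this sum, Ppp2r3a stood at 6.31 ± 0.812 cpm per 1000 marker cpm in WT (range 5.27 to 7.45, n = 6). In cmGch1 KO it stood at 4.20 ± 0.317 (range 3.65 to 4.51, n = 6), without overlap, a mean difference of -33.4%. Ppp2r3a was chosen on its own difference and the sum moved by -8.56%, so this ratio is a description and no separate result. Myh6 alone gave a mean of 23171 cpm of the sum's 56681 cpm in WT.

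Markers of other cell types were all detected, and their summed levels overlapped between genotypes in each list. The 5 macrophage markers all had positive log2 fold changes with a median of 0.28. Of these, 4 had an unadjusted p under 0.05 and 0 were called. The 5 red blood cell markers had negative ones with a median of -0.39, and 0 were called. The 5 fibroblast and 5 endothelial markers had medians of 0.10 and 0.04 with 0 called. Of 5 smooth muscle and pericyte markers Acta2, smooth muscle actin, was called higher (log2 fold change 0.66, FDR 0.0067), while the list's median was -0.06. The call of Acta2 was lost without cmGch1 KO replicates 2 and 3. The 3 atrial markers had a median of 0.11, with 0 called and sums from 7.66 to 284 cpm in WT. The part of any of these cell types in the Ppp2r3a values was not tested.

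The catalytic subunits are encoded by Ppp2ca and Ppp2cb, which carry out the same dephosphorylation reaction. Ppp2ca ranged from 205 to 234 cpm in WT (median 225) and from 200 to 261 cpm in cmGch1 KO (median 224). Its groups overlapped throughout, and the log2 fold change was 0.03 (SE 0.07, 95% interval -0.12 to 0.17). Ppp2cb ranged from 29.5 to 35.1 cpm in WT (median 33.1) and from 27.4 to 37.6 cpm in cmGch1 KO (median 32.4). It too overlapped, with a log2 fold change of 0.02 (SE 0.08, 95% interval -0.16 to 0.20). Per length of merged exons, the ratio of Ppp2ca to Ppp2cb was 1.34 ± 0.103 in WT and 1.35 ± 0.137 in cmGch1 KO (n = 6 each), so that Ppp2ca made up 57.2% and 57.4% of the catalytic transcripts.

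The scaffold subunits hold the catalytic and regulatory subunits together. Ppp2r1a, the main scaffold transcript, ranged from 147 to 165 cpm in WT (median 161) and from 164 to 173 cpm in cmGch1 KO (median 169). The lowest cmGch1 KO library, at 164 cpm, lay within the WT range, and the other 5 lay above it. The log2 fold change was 0.08 (SE 0.05, 95% interval -0.02 to 0.19). Ppp2r1b ranged from 7.04 to 10.4 cpm in WT (median 9.39) and from 7.03 to 9.90 cpm in cmGch1 KO (median 8.18), with a log2 fold change of -0.13 (SE 0.11, 95% interval -0.37 to 0.12). Per length, Ppp2r1a made up 97.1% ± 0.369 of the scaffold transcripts in WT and 97.5% ± 0.270 in cmGch1 KO (n = 6 each). Ppp2r1b overlaps Sik2 on the opposite strand, and Ppp2r2d overlaps Mapk1ip1 in the same way. The strand setting of the counting is not given in the sources used here, so the values of Ppp2r1b and Ppp2r2d are uncertain to that extent.

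The B55 regulatory subunits, Ppp2r2a and Ppp2r2d, take PP2A to substrates of mitotic exit and of several signalling pathways. Ppp2r2a ranged from 46.0 to 50.9 cpm in WT (median 49.0) and from 42.9 to 49.2 cpm in cmGch1 KO (median 46.6), with a log2 fold change of -0.07 (SE 0.06, 95% interval -0.19 to 0.05). Ppp2r2d ranged from 32.2 to 44.7 cpm in WT (median 38.3) and from 31.7 to 44.1 cpm in cmGch1 KO (median 32.7). It had the lowest log2 fold change of the 9 subunits other than Ppp2r3a, -0.14 (SE 0.10, 95% interval -0.36 to 0.07). Its groups still overlapped over nearly their whole range, but the upper part of this overlap came from cmGch1 KO replicate 1 alone. The next highest cmGch1 KO library, replicate 6, was at 36.6 cpm. Without replicate 1 the Ppp2r2d log2 fold change was -0.22.

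The B56 regulatory subunits, Ppp2r5a, Ppp2r5c and Ppp2r5e, bind substrates through a short linear motif, and B56α, the product of Ppp2r5a, is known in heart muscle for its place at ankyrin-B and the ryanodine receptor. Ppp2r5a ranged from 117 to 145 cpm in WT (median 129) and from 119 to 145 cpm in cmGch1 KO (median 129). Ppp2r5c ranged from 122 to 140 cpm in WT (median 135) and from 123 to 148 cpm in cmGch1 KO (median 129). Ppp2r5e ranged from 39.3 to 52.0 cpm in WT (median 45.4) and from 41.9 to 52.8 cpm in cmGch1 KO (median 45.6). All 3 overlapped almost completely. Their log2 fold changes were 0.01 (SE 0.07, 95% interval -0.15 to 0.17) for Ppp2r5a, -0.01 (SE 0.06, 95% interval -0.15 to 0.12) for Ppp2r5c and 0.02 (SE 0.09, 95% interval -0.17 to 0.21) for Ppp2r5e.

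Across the 9 subunits other than Ppp2r3a, 4 log2 fold changes were negative and 5 positive, from -0.14 to 0.08 with a median of 0.01. Some of these signs changed under other processing choices, as given at the end. Each of their 95% intervals contained 0, and the lowest bound among the 9 was -0.37, for Ppp2r1b. Of the 10 subunits 1 had genotypes that did not overlap, against 1.87% of all genes tested, 0.802% with lower and 1.07% with higher levels in cmGch1 KO. Since Ppp2r3a chose the set, nothing is read from that count.

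**Figure D2:**
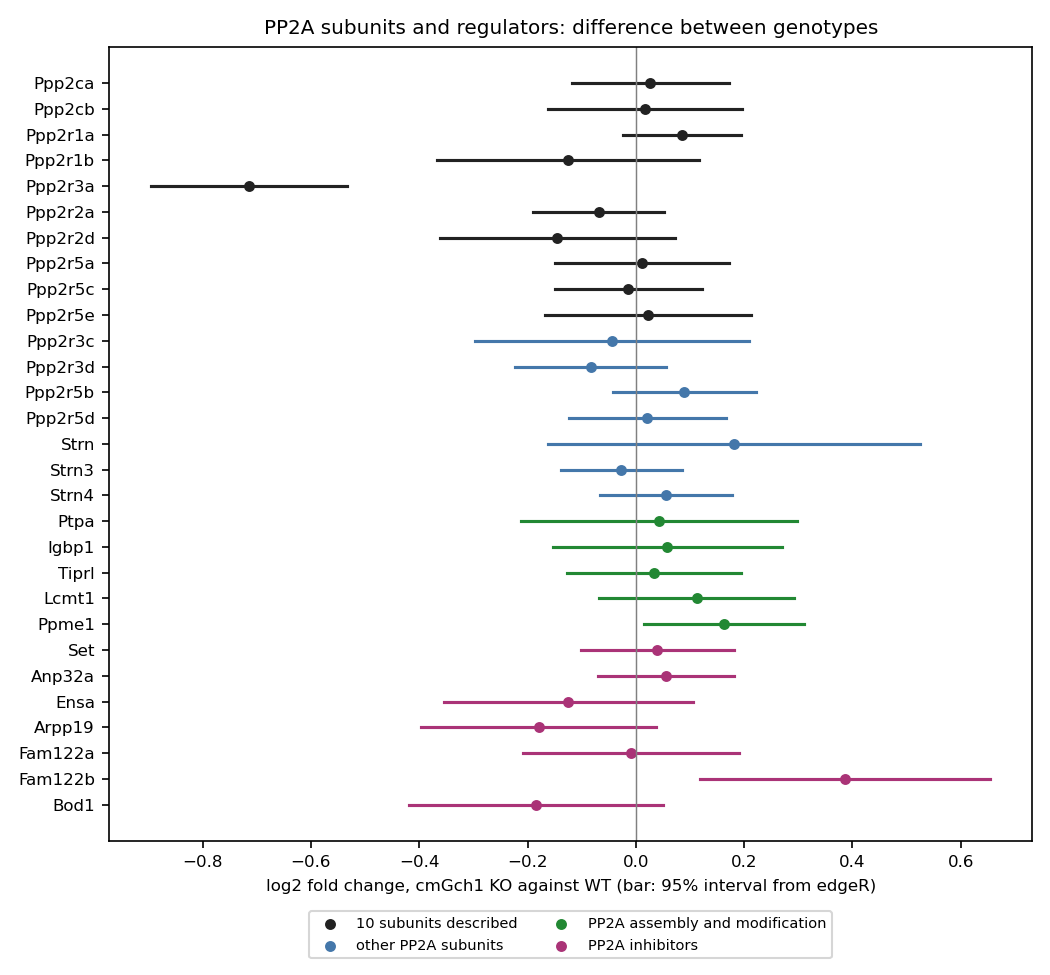
Difference between genotypes as log2 fold change, negative where cmGch1 KO is lower (x axis; points, with the 95% interval as a bar) for the 10 subunits and for the tested genes of 3 further lists of PP2A subunits and regulators. Ppp2r3a stands at -0.71, and the intervals of the other 9 subunits cross 0.

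To compare levels between genes, cpm values were divided by the length of each gene's merged exons in kilobases. In WT hearts Ppp2r1a was highest at 46.8 cpm per kb (range 43.0 to 48.5). Ppp2ca at 29.7 (27.4 to 31.2) and Ppp2r3a at 28.7 (25.0 to 33.5) came next and overlapped each other. Ppp2cb followed at 22.2 (20.1 to 23.9), below the lowest Ppp2r3a value. Ppp2r5c at 16.0 and Ppp2r5a at 13.6 overlapped, as did Ppp2r2a at 9.05, Ppp2r5e at 8.52 and, with Ppp2r5e only, Ppp2r2d at 6.55. Ppp2r1b was lowest at 1.40 (1.09 to 1.61). In cmGch1 KO hearts Ppp2r3a stood at 17.5 cpm per kb (14.9 to 18.5), below every Ppp2cb value (18.6 to 25.6). There it overlapped Ppp2r5c (14.8 to 17.8) and, through its lowest library, Ppp2r5a (12.4 to 15.1). The order depends on the length used. With the longest annotated transcript, Ppp2r3a stood at 52.6 in WT and 32.1 in cmGch1 KO, and Ppp2r5a at 36.8 and 37.1, so that Ppp2r5a had the higher mean of the pair in cmGch1 KO.

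Among the 6 regulatory subunits described here, Ppp2r3a took a smaller part in cmGch1 KO than in WT. Ppp2r3a was chosen on its own difference, so its share and the sum of the 6 are descriptions and no separate result. The further regulatory subunits were left out of these shares, among them Strn3 at 22.7 and Ppp2r5b at 13.0 cpm per kb in WT. The shares are therefore not parts of all regulatory transcripts. Of the summed level per length of the 6 regulatory subunits, it held 34.7% ± 1.999 in WT (range 32.9 to 38.3, n = 6) and 24.9% ± 1.22 in cmGch1 KO (range 22.6 to 26.0, n = 6). With the longest transcript as the length these shares were 34.2% and 24.4%. The remaining shares must then add up to more. That of Ppp2r5c went from 19.4% ± 0.575 to 22.6% ± 1.34 and that of Ppp2r5e from 10.3% ± 0.584 to 12.3% ± 0.773, both without overlap, although neither transcript's own level differed in this way. The sum of all 6 was 82.4 ± 5.47 cpm per kb in WT and 70.2 ± 2.74 in cmGch1 KO, without overlap. Without Ppp2r3a it was 53.7 ± 2.58 and 52.7 ± 1.62, with overlap. The catalytic sum, 51.9 ± 2.60 and 52.7 ± 4.57, and the scaffold sum, 48.2 ± 2.08 and 50.9 ± 0.940, also overlapped.

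**Figure D3:**
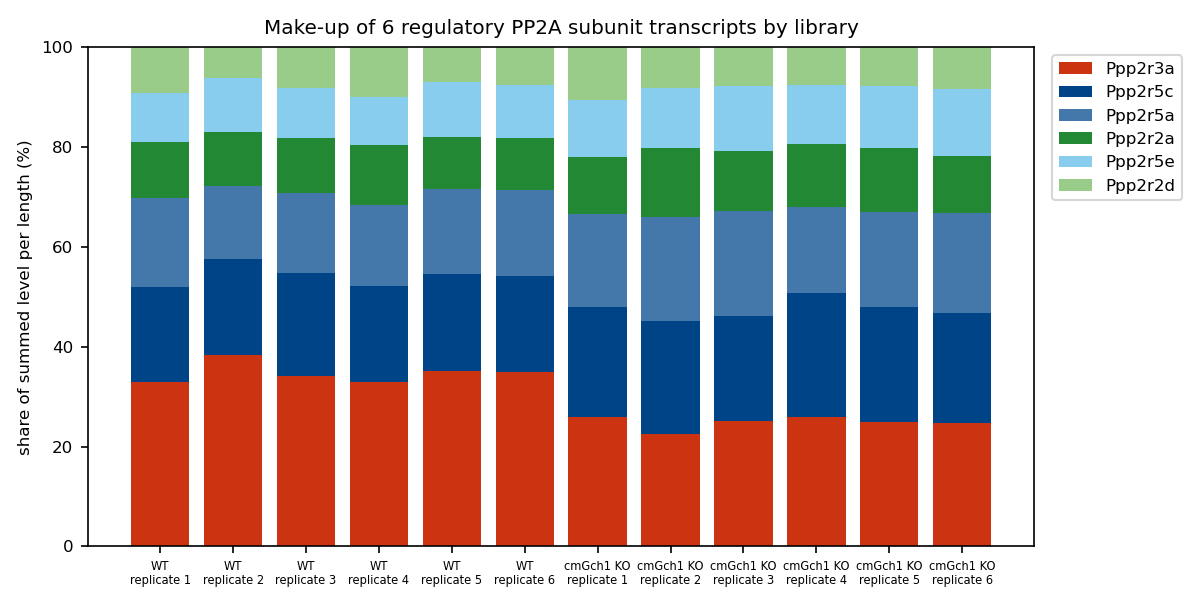
Share of each of 6 regulatory subunits in their summed level per length (y axis, percent; merged exons) in each library (x axis). The Ppp2r3a share at the foot of each bar lies between 32.9% and 38.3% in the WT libraries and between 22.6% and 26.0% in the cmGch1 KO libraries.

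Within genotypes the subunits did not vary as 1 unit. Correlations of log2 cpm were taken over the 12 libraries after the mean of each genotype was subtracted. They describe these libraries and share their depth and composition. Of the 45 pairs of subunits 24 were positive, the median Pearson r was 0.09 and 7 exceeded 0.5. Of the other subunits, Ppp2r3a varied most closely with Ppp2r5e (r = 0.79) and Ppp2r5c (r = 0.73). Among all genes tested these ranked only 171 and 389 by r with Ppp2r3a, so many genes outside the set varied with it more closely. With Ppp2ca it had r = -0.39 and with Ppp2r2d r = -0.31. The highest value of any pair was 0.80, between Ppp2cb and Ppp2r5a, and the lowest was -0.71, between Ppp2r1b and Ppp2r2d. Of all genes tested, those most like Ppp2r3a were Arhgap20 (r = 0.92), Aldh6a1 (r = 0.92), a mitochondrial enzyme of valine breakdown, Got2 (r = 0.91), the mitochondrial aspartate aminotransferase, Kat2b (r = 0.90), a lysine acetyltransferase, and Vps4b (r = 0.90), an ESCRT ATPase. Their own log2 fold changes lay between -0.13 for Aldh6a1 and 0.04 for Vps4b and none was called.

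**Figure D4:**
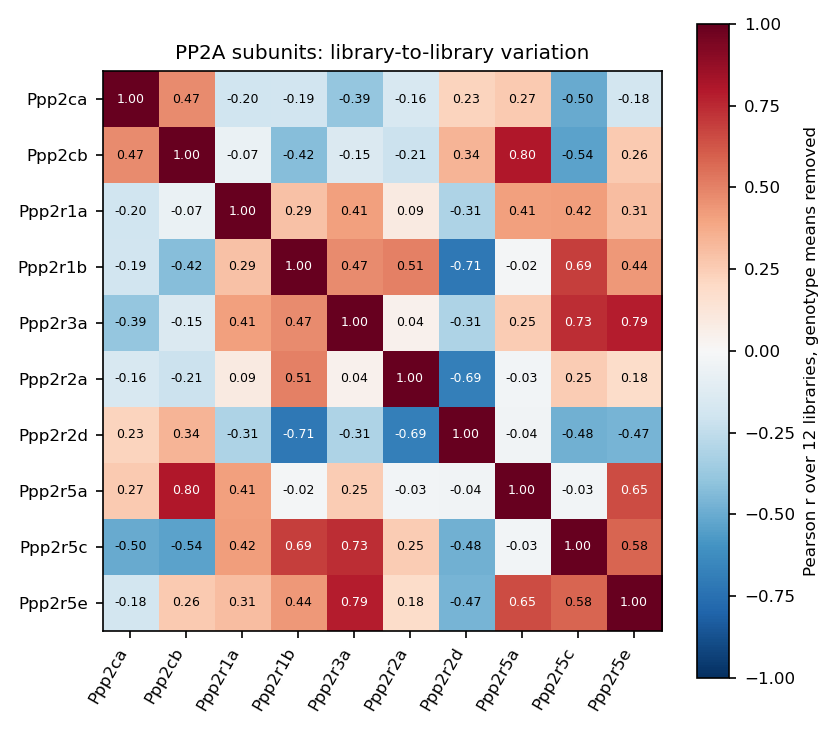
Pearson r (colour and number) between the log2 cpm of each pair of the 10 subunits over 12 libraries, after subtraction of genotype means. The Ppp2r3a row is highest for Ppp2r5e (0.79) and Ppp2r5c (0.73) and lowest for Ppp2ca (-0.39).

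The wider PP2A system was read from 7 lists of 60 genes, of which 52 were tested. In the fit over all genes 0 of the 52 were called by edgeR, 3 were higher and 0 lower at an unadjusted p under 0.05, and DESeq2 called 1. For comparison, 7.01% of all genes tested were higher and 4.51% lower at that unadjusted level. DESeq2's Wald test called 155 lower and 218 higher among all 11225 genes tested. The median log2 fold change over the 52 was -0.01, as over all genes. Strip2, a scaffold of the STRIPAK complex in which PP2A joins a kinase, was the 1 that DESeq2 called. It ranged from 81.6 to 113 cpm in WT (median 93.2) and from 106 to 131 cpm in cmGch1 KO (median 123), with a log2 fold change of 0.32 (SE 0.09, FDR 0.121 by edgeR, 0.035 by DESeq2). Fam122b, a relative of the PP2A inhibitor Fam122a, went from a mean of 4.36 to 5.71 cpm (log2 fold change 0.39, SE 0.12, edgeR FDR 0.193). It lies on the X chromosome, and its highest values, 6.79 and 6.83 cpm, were those of cmGch1 KO replicates 2 and 3. The Fam122b log2 fold change was 0.24 without them (unadjusted p 0.063 by edgeR), and 0.22 in the authors' normalized values with limma. Ppme1, the methylesterase that removes the methyl group from the end of the catalytic subunit, went from 44.4 to 49.7 cpm (log2 fold change 0.16, SE 0.07, edgeR FDR 0.363). In all 3 genes the groups overlapped.

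Of the 9 further PP2A subunits 7 were tested and 0 called, with a median log2 fold change of 0.02. They were Ppp2r3c (-0.04) and Ppp2r3d (-0.08), which are of the same B″ family as Ppp2r3a, Ppp2r5b (0.09) and Ppp2r5d (0.02) of the B56 family, and the striatins Strn (0.18), Strn3 (-0.03) and Strn4 (0.06). Per length, Ppp2r3d stood at 8.16 and Ppp2r3c at 3.12 cpm per kb in WT, below Ppp2r3a in both genotypes. Ppp2r2b and Ppp2r2c did not pass the filter on low counts. Each of the 5 assembly and modification genes had a positive log2 fold change. The activator Ptpa was at 0.04, the catalytic-subunit chaperone Igbp1 at 0.06, its partner Tiprl at 0.03, the methyltransferase Lcmt1 at 0.11 and Ppme1 at 0.16, with 0 called. The 7 tested PP2A inhibitors and their regulators had a median of -0.01, the 10 STRIPAK partners -0.04, the 10 genes of PP4, PP5 and PP6 -0.01 and the 8 of PP1 -0.0007. The 5 tested binding partners of B subunits had a median of -0.12, with 0 called. They were the calcium channel Cacna1c (-0.28), the ryanodine receptor Ryr2 (-0.21), ankyrin-B, Ank2 (-0.12), the anchoring protein Akap6 (-0.0062) and Lpp (0.10), a protein of cell adhesions.

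The genes next to Ppp2r3a were examined for the same difference. Towards its 3′ end lie Msl2, a ubiquitin ligase of the MSL complex, Pccb, the β subunit of propionyl-CoA carboxylase, and the cohesin gene Stag1. Pccb ranged from 123 to 148 cpm in WT (median 135) and from 105 to 128 cpm in cmGch1 KO (median 110), overlapping through cmGch1 KO replicate 1 alone. Its log2 fold change was -0.27 (SE 0.07, edgeR FDR 0.0711). DESeq2 put it at an FDR of 0.0024, and edgeR without cmGch1 KO replicate 1 at 0.015. The FDR of Pccb was under 0.05 in 3 of the 21 alternatives and reached 0.361 in the others. Across all 21 its log2 fold change ran from -0.31 to -0.19. Msl2 had a log2 fold change of -0.22 (edgeR FDR 0.406) and Stag1 of 0.11 (edgeR FDR 0.758). On the 5′ side Ephb1 had -0.01 (edgeR FDR 0.990) and the muscle gene Ky -0.35 (edgeR FDR 0.179), while 9630041A04Rik did not pass the filter on low counts.

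**Figure D5:**
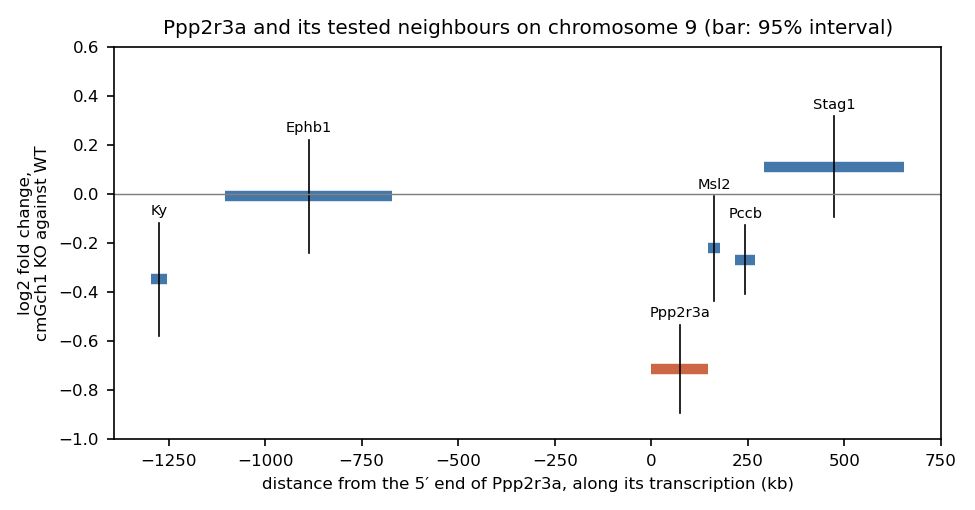
Difference between genotypes as log2 fold change, negative where cmGch1 KO is lower (y axis) for Ppp2r3a and its 5 tested neighbours, drawn as bars over each gene's extent by distance from the 5′ end of Ppp2r3a (x axis, kb), with 95% intervals as vertical lines. Ppp2r3a is at -0.71, Pccb at -0.27, Msl2 at -0.22 and Stag1 at 0.11, and on the 5′ side Ephb1 is at -0.01 and Ky at -0.35.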

How the data were processed

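Total RNA from left ventricles was made into dUTP-stranded paired-end libraries and sequenced on a NovaSeq system. Per the study's methods the authors generated raw counts per gene with HISAT2, Picard and featureCounts; the submitters' processing notes name GRCm38, HISAT2 and SAMtools. The annotation and strand setting are not given in the sources used here. The authors also deposited normalized values on a log2 scale, by a tool not stated, used only as an alternative with limma 3.58.1. Groups came from the genotype labels. Symbols and coordinates came from GENCODE M21 (26582 of 26921 identifiers matched). Counts were analysed with edgeR 4.0.16 in R 4.3.3: cpm over 3 in at least 6 libraries, TMM, quasi-likelihood test by genotype, Benjamini-Hochberg adjustment over all genes tested, FDR threshold 0.05. DESeq2 1.42.0 was an alternative, and the fit was tested on simulated data. Depth was 19921398 to 37917806 counts. Values are cpm scaled by TMM; correlations used a prior count of 2.

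The members and lists were chosen with earlier results of these data known. Named genes were the 10 subunits, Gch1, Xist and Y-linked genes, pathway genes with an FDR or unadjusted p under 0.05, every further PP2A subunit and assembly gene, the 5 genes most like Ppp2r3a and 3 protein-coding neighbours on each side. Acta2, Ryr2, Cacna1c, Ank2, Akap6 and Lpp were named after their values were seen. Alternatives were the scaling, the filter, the test, the covariates, the length and the libraries left out.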

Additional observations from a re-analysis of the deposited data

Results flagged for a closer look

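In 5 of the 70 groups of 6 libraries examined, 1 library stood apart from the other 5 by Dixon's test, where chance flags about 1 in 20 groups. The groups were the 2 genotypes of each tested gene on the list of named genes above. The Y-linked genes and the genes named after their values were seen were left out. Of the 20 groups of PP2A subunits, 1 was flagged. Ppp2r3a in cmGch1 KO replicate 2 was at 185 cpm, below the 214 to 231 cpm of the other cmGch1 KO libraries, with a gap of 0.6253 of the group's range against a critical value of 0.625. Without this library the log2 fold change of Ppp2r3a was -0.68. Igbp1 in cmGch1 KO replicate 1 was at 46.2 cpm against 32.8 to 37.6 cpm in the others. Pccb in cmGch1 KO replicate 1 was at 128 cpm against 105 to 112 cpm. Aldh6a1 in WT replicate 2 was at 283 cpm against 221 to 244 cpm. Vps4b in cmGch1 KO replicate 2 was at 27.9 cpm against 31.1 to 32.7 cpm.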

How the results depend on the processing

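Ppp2r3a was lower in cmGch1 KO in all 21 alternatives, with log2 fold changes from -0.75 to -0.64, and from -0.75 to -0.66 when each library was left out in turn. The count of genes called lower, 50, was 155 with DESeq2's Wald test, 76 with the replicate block, 24 with sex-linked expression as a covariate, 18 without the libraries with high Xist, and 28 to 96 when each library was left out. The count called higher, 76, was 116 with scaling by library size alone, 218 with DESeq2's Wald test, 40 with sex-linked expression as a covariate, 16 without the libraries with high Xist, and 44 to 111 when each library was left out. Library-size scaling moved the median of all genes by 0.07, and gave Ppp2r1a 0.16 and Ppp2r2a 0.01. The cause of these changes was not tested. Of the pathway genes 1, Strip2, was called by DESeq2's Wald test. Without the libraries with high Xist 0 markers were called. With the replicate block the log2 fold change of Ppp2r3a was -0.71 and that of Pccb -0.27 (edgeR FDR 0.046). Same-numbered libraries correlated above 0.1 in 3 of 6 pairs, with r of 0.68, 0.40 and 0.51 in replicates 1, 5 and 6. In replicates 2, 3 and 4 r lay between -0.13 and -0.08. Of the 12 libraries 5 correlated best with their own number. Whether the numbers mark a shared factor was not tested, and the main fit used no pairing. With the longest transcript as length, WT levels in cpm per kb were 52.6 for Ppp2r3a, 31.3 for Ppp2ca, 66.2 for Ppp2r1a, 2.47 for Ppp2r1b, 12.1 for Ppp2r2a, 10.1 for Ppp2r2d, 36.8 for Ppp2r5a and 32.3 for Ppp2r5c. Log2 fold changes near 0, none of them called, changed sign under some alternatives. Among the 10 subunits the sign changed in 3 of 21 alternatives for Ppp2ca, 7 for Ppp2cb and 8 for Ppp2r5a. It changed in 5 for Ppp2r5c, 5 for Ppp2r5e and 1 for Ppp2r2a. With library-size scaling Ppp2r3c was at 0.031, Strn3 at 0.049, Ephb1 at 0.064 and Arhgap20 at 0.0048. Without the libraries with high Xist the Ptpa log2 fold change was -0.0057 and Arhgap20 at 0.0027. When each library was left out, Ppp2r3c ranged from -0.12 to 0.021, Ppp2r5d from -0.021 to 0.048, Ptpa from -0.036 to 0.12, Igbp1 from -0.012 to 0.097, Ephb1 from -0.062 to 0.047 and Arhgap20 from -0.14 to 0.0044. Gene counts cannot separate the 2 forms of Ppp2r3a.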
